A study of Mus musculus and Homo sapiens with 34 samples.

Results

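The genes described here are 10 genes of the Hippo pathway's transcriptional output, taken by name from the count tables. They are the target genes Ccn1, Ccn2, Ankrd1, Amotl2, Ajuba, Lats2, Axl and Arhgef17, and the coactivator genes Yap1 and Wwtr1, which encodes TAZ. Each of 6 count tables listed all 10 among 16553 to 26245 genes. The table of the 48-h experiment in 3154 organoids listed 9 among 17979, and Axl was not analysed in that experiment. Every listed member passed the filter on low counts in every table.

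RNA was sequenced from 34 libraries in 17 groups of 2 libraries each, of which 22 were mouse (lung tumour organoids and a lung cell line) and 12 human (lung adenocarcinoma lines). The alleles of the 3154 organoids include p53frt, Rosa-FSF-CreERT2 and Hnf4aflox, so that 4-hydroxytamoxifen (4OHT) switches on a Cre recombinase that removes Hnf4a, the gene of a nuclear receptor of liver and gut epithelium. They were sampled 2 weeks after 2 days of 4OHT (2 mM, as the labels give it) or ethanol. A separate experiment combined 4OHT or ethanol with 3 nM MRTX1133, a small-molecule inhibitor, or vehicle. Its recorded time of 48 h is the same for every group, ethanol included, and may not be the time since 4OHT. No 4OHT dose is recorded for it, and 48 h below names the experiment. Deletion below means 4OHT against ethanol. No culture without the floxed Hnf4a allele received 4OHT, so Hnf4a loss, 4OHT and Cre activity cannot be told apart. The alleles of the 1027B organoids and the 3311 cell line include p53frt, Rosa-FSF-CreERT2, Foxa1flox and Foxa2flox. The 1027B organoids received vehicle, 10 nM trametinib, an inhibitor of the kinase MEK, or 20 nM MRTX1133 for 48 h, and 3311 received vehicle or 50 nM trametinib for 48 h. For the human lines, H358 and H1651, the 48-h treatment was 20 nM trametinib or its vehicle. H1651 cells with a lentiviral HNF4A construct were also compared with and without 1 µg/mL doxycycline at 7 days. Each culture is a single line, and the labels do not say whether the libraries of a group came from separate cultures, so p-values measure the spread between these libraries, which may be technical.

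In the Hippo pathway, the kinases MST1 and MST2 (genes STK4 and STK3) activate LATS1 and LATS2, which phosphorylate YAP and TAZ and keep them out of the nucleus. YAP and TAZ do not bind DNA themselves: in the nucleus they act through TEAD transcription factors, which recognise a short element in promoters and enhancers. Several targets feed back on the pathway, and in the lung YAP and TAZ are known for their part in the differentiation of alveolar type 1 cells and in repair after injury.

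In the mouse annotation (GENCODE M21, GRCm38), Ccn1 lies at chr3:145646976-145649981 on the minus strand, Ccn2 at chr10:24595442-24598683 (plus), Ankrd1 at chr19:36111961-36120099 (minus), Amotl2 at chr9:102716672-102733418 (plus) and Ajuba at chr14:54567472-54577558 (minus). Lats2 lies at chr14:57689662-57758388, Axl at chr7:25757273-25788705, Arhgef17 at chr7:100869752-100932107, Yap1 at chr9:7931999-8004596 and Wwtr1 at chr3:57455649-57575910, all on the minus strand.

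The mouse promoters of 7 of the 10 genes held a match to the element that TEAD factors bind. In RefSeq promoter sequences of build GRCm38.p6, 8 of the 10 genes had an entry, with 10 start sites in all. GGAATG, searched on both strands (the other strand reads CATTCC) in the 250 bases before the start site, was found for 7 of these 8 genes and in 8 of the 10 windows. It was found in 12.6% of 32851 promoter windows of the same length. The windows of Lats2 held none. Matches lay 103 bases upstream of the start in Ccn1, 210 and 123 in Ankrd1, 65 in Amotl2, 186 and 164 in Ajuba, 141 in Yap1, 233 in Axl, and 136 or 170 in Wwtr1, depending on its start site. None of the 10 windows held the AP-1 element TGANTCA (6.75% of all windows), the HNF4 element CAAAGTCCA (0.384%) or the CArG box bound by serum response factor (1.47%), so no TEAD match overlapped one of them. A match describes these letters and does not show binding. The 4 windows printed here are those of the genes with a match that rose most often in the comparisons below. They are written 5′ to 3′ on the strand of the gene, with the TEAD element in capitals. They are Ccn1 at chr3:145649986-145650235 (minus strand), Ankrd1 at chr19:36119845-36120094 (minus), Amotl2 at chr9:102717554-102717803 (plus) and Ajuba at chr14:54577662-54577911 (minus).
Ccn1: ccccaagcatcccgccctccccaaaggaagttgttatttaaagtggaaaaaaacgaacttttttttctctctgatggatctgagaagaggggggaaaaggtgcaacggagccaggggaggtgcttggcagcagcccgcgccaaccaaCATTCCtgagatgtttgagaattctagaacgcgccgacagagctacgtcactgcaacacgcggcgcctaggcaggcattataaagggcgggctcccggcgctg
Ankrd1: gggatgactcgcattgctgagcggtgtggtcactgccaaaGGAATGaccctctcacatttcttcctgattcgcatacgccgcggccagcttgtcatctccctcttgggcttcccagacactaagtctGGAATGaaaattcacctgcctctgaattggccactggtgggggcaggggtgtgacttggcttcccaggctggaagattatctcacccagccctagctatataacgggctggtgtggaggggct
Amotl2: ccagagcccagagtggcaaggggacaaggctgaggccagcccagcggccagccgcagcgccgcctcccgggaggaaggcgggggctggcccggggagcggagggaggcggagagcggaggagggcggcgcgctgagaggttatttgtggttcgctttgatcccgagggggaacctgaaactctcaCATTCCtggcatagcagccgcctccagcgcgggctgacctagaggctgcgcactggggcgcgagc
Ajuba: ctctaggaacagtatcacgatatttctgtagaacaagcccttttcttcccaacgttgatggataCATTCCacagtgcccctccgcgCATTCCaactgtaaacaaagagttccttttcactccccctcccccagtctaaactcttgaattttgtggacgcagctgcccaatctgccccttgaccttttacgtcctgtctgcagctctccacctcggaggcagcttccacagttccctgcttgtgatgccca

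Library totals ran from 19692517 to 45284286 counts. Hnf4a was lower in the 4OHT libraries of all 3 deletion comparisons (log2 changes of -2.61, -2.18 and -2.72), and HNF4A rose by 1.20 on the log2 scale with doxycycline in H1651 and had 0 counts in every H358 library. Hnf4a was also lower with trametinib (-1.01) and MRTX1133 (-0.76) in 1027B and with MRTX1133 in the 4OHT libraries of 3154 (-0.86). Dusp6, a phosphatase gene induced by ERK signalling and used here as a check of the inhibitors, fell with trametinib in 3311, 1027B and H358 and with MRTX1133 in 1027B. In the MRTX1133 comparisons of 3154 it did not pass the test: 135 and 212 CPM (counts scaled to library size within a table) stood against 134 and 193 with the drug in ethanol libraries. In H1651 with trametinib it went from 49.8 and 51.8 to 5.27 and 7.46 CPM, with an adjusted p of 0.149. Epithelial keratins and adhesion genes were abundant in every library (summed level 3601 to 10911 CPM over 5 markers). Their sum was lower with trametinib in H358 (5534 and 5337 CPM with vehicle, 3601 and 3882 treated) and in 1027B (9170 and 9027 against 7418 and 8260). It was also lower without overlap with MRTX1133 in 1027B (8126 and 7992) and in the 4OHT libraries of 3154 (8214.1 and 7854 against 7293 and 6795). The libraries with both 4OHT and MRTX1133 were also below those with ethanol and MRTX1133 (7319 and 7641). The sum was higher with doxycycline in H1651 (4420 and 4422 against 5716 and 6204), and its part in the members' changes was not tested.

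Changes were tested with edgeR's quasi-likelihood test over all genes of a table, and a gene is called where its Benjamini-Hochberg adjusted p was under 0.05. With 2 libraries per group, no permutation test of a single gene could reach that level. After Hnf4a deletion in 3154 organoids, 3 of 10 genes were called at 2 weeks, where 9.81% of all tested genes were. In the 48-h experiment 5 of 9 were called with vehicle (31.0% of all genes) and 4 of 9 under MRTX1133 (27.7%). All of these calls were higher after deletion. MRTX1133 gave 1 call of 9 in the ethanol libraries of 3154 (0.349% of all genes) and 1 of 9 in its 4OHT libraries (4.64%), and 2 of 10 in 1027B (6.27%), again all higher. Trametinib gave 4 calls of 10 in 1027B (26.7%), all higher, 6 of 10 in 3311 (39.0%), of which 5 were higher, and 8 of 10 in H358 (46.8%), of which 7 were higher. In H1651 none of the 10 was called, either with trametinib (0% of all genes) or with doxycycline (1.42%). A fit that also included the replicate number did call members in both, among 10.3% and 17.6% of all genes, as given at the end. For trametinib in H1651, edgeR left 597 of 18277 genes under an unadjusted p of 0.05, and DESeq2 called 47 genes, none of them a member. The doxycycline comparison had 247 calls among 17351 genes with edgeR and 441 with DESeq2, again none of them a member. In the 5 comparisons with the most calls over all genes (trametinib in 3311, 1027B and H358, and both 48-h deletion comparisons), the share of members called was 1.5 to 1.79 times the share of all genes, which is near the background for so few genes. In the other comparisons with a call, the count rested on 1 to 3 members. The 1027B comparisons share their vehicle libraries, and the 48-h 3154 comparisons share groups with each other.

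The median log2 change of the members stood beside a median of all genes that was within 0.03 of 0 in every comparison. It was 0.49 after deletion at 2 weeks, 0.87 and 0.50 in the 48-h deletion comparisons, 0.40 and 0.74 with trametinib and MRTX1133 in 1027B, 0.86 in 3311 and 1.25 in H358. With MRTX1133 in 3154 it was 0.18 in the ethanol and 0.16 in the 4OHT libraries, and in H1651 it was 0.11 with trametinib and -0.12 with doxycycline.

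**Figure D1:**
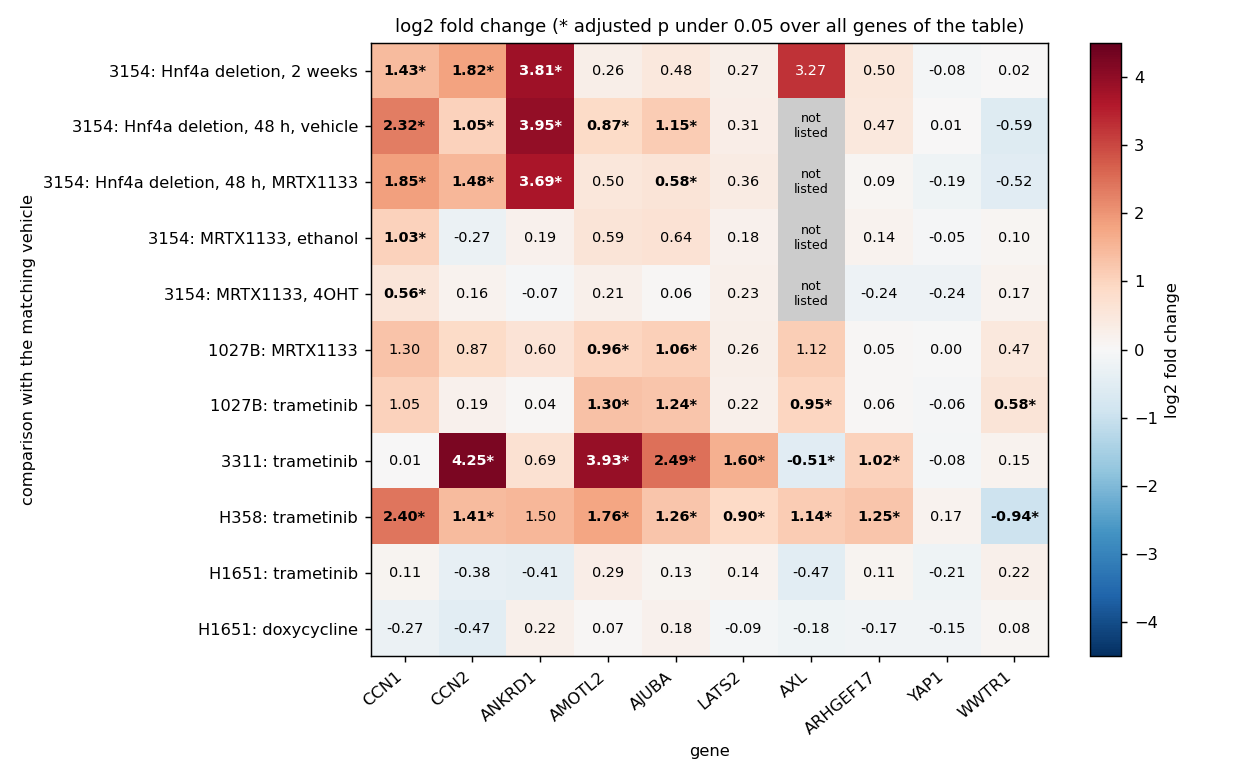
log2 fold change of each gene (columns) in the 11 comparisons with a matching vehicle (rows), red for higher and blue for lower; bold values with an asterisk passed an adjusted p of 0.05 over all genes of their table, and grey cells mark Axl, which was not listed in the 48-h 3154 table. CCN1 and AJUBA were called in 6 of 11 comparisons, and YAP1 in none.

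Ccn1 and Ccn2 encode secreted matricellular proteins (formerly CYR61 and CTGF) and are the most widely used readouts of YAP activity. After 2 weeks of Hnf4a deletion, Ccn1 went from 18.2 and 17.2 CPM in the ethanol libraries to 42.2 and 53.5 in the 4OHT libraries, a log2 change of 1.43 ± 0.17 (SE; adjusted p = 0.0128). At 48 h it went from 8.58 and 8.39 to 41.6 and 43.0 CPM with vehicle (2.32 ± 0.13, adjusted p = 0.000119) and from 17.8 and 16.8 to 63.1 and 61.7 under MRTX1133 (1.85 ± 0.12, adjusted p = 0.00015). Every 4OHT library was above every matching ethanol library. Without the second 4OHT library the 2-week call was lost (adjusted p = 0.052). Ccn2 moved the same way, from 46.1 and 39.8 to 148 and 156 CPM at 2 weeks (1.82 ± 0.14, adjusted p = 0.00551). In the 48-h experiment Ccn2 went from 97.1 and 78.8 to 171 and 194 CPM with vehicle (1.05 ± 0.14, adjusted p = 0.00164), and from 73.6 and 72.2 to 206 and 200.4 under MRTX1133 (1.48 ± 0.14, adjusted p = 0.000454). The groups did not overlap in any of the 3 comparisons.

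Ccn1 rose with MRTX1133 in 3154 organoids, from the 8.58 and 8.39 CPM given above to 17.8 and 16.8 in the ethanol libraries (1.03 ± 0.13, adjusted p = 0.0263), and from 41.6 and 43.0 to 63.1 and 61.7 in the 4OHT libraries (0.56 ± 0.12, adjusted p = 0.0403). Neither call held when either MRTX1133 library was left out (adjusted p of 0.0839 or more), the first was lost when its 4 libraries were fitted alone (adjusted p = 0.451), and the second was also lost without either vehicle library. Ccn2 did not pass in these comparisons, at log2 changes of -0.27 ± 0.14 and 0.16 ± 0.14. In 1027B organoids Ccn1 stood at 54.6 and 25.5 CPM with vehicle, 69.7 and 96.7 with trametinib and 112 and 84.6 with MRTX1133. All 4 treated libraries were above both vehicle libraries, yet the vehicle libraries differed from each other by more than 2-fold, and neither change was called (1.05 ± 0.35, adjusted p = 0.0667, and 1.30 ± 0.35, adjusted p = 0.0841). Ccn2 was abundant in 1027B, at 269.7 and 165 CPM with vehicle, 248 and 248 with trametinib and 521 and 276 with MRTX1133. Its trametinib libraries lay between the vehicle libraries, and its MRTX1133 libraries lay above them without passing the test (0.87 ± 0.33, adjusted p = 0.17). In a fit that included the replicate number, described below, both Ccn1 changes in 1027B and the MRTX1133 change of Ccn2 were called.

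The trametinib responses of CCN1 and CCN2 were not alike in the cell lines. In 3311, Ccn2 was near the limit of detection with vehicle, at 0.409 and 0.956 CPM, and stood at 12.5 and 13.4 CPM with trametinib (4.25 ± 0.40, adjusted p = 0.000767). Leaving out the first or second vehicle library gave 3.75 or 4.97. Ccn1 in the same libraries was at 54.9 and 61.3 CPM with vehicle and 54.3 and 62.5 with trametinib, a log2 change of 0.01 ± 0.14. In H358, CCN1 went from 66.2 and 46.5 to 359 and 237 CPM (2.40 ± 0.23, adjusted p = 0.000123), and CCN2 from 18.5 and 8.51 to 49.5 and 21.98 (1.41 ± 0.42, adjusted p = 0.0244). The CCN2 groups did not overlap, but both groups spread more than 2-fold. DESeq2 did not call this change (adjusted p = 0.142), and leaving out 1 library moved it between 0.70 and 2.05. In H1651 the libraries of CCN1 spread from 76.5 to 145 CPM with no separation of vehicle and trametinib (0.11 ± 0.36). Those of CCN2 spread from 74.4 to 129.9 CPM, also overlapping (-0.38 ± 0.20). Within each replicate number CCN2 was lower with trametinib (96.3 to 74.4 and 129.9 to 99.3 CPM). An edgeR fit that included the replicate number called it (-0.38, adjusted p = 7.85e-07), among 10.3% of all genes. Doxycycline gave -0.27 ± 0.29 for CCN1 and -0.47 ± 0.29 for CCN2, with overlapping libraries and no call. With the replicate number in the fit both were called lower, among 17.6% of all genes.

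Ankrd1 encodes a muscle ankyrin repeat protein that shuttles to the nucleus. It had the largest called change of the members in each of the 3 deletion comparisons. At 2 weeks it went from 1.05 and 2.52 CPM to 20.4 and 28.9 (3.81 ± 0.44, adjusted p = 0.0124), at 48 h from 1.22 and 0.839 to 13.5 and 18.4 (3.95 ± 0.28, adjusted p = 0.000177), and under MRTX1133 from 1.30 and 1.05 to 17.1 and 13.4 (3.69 ± 0.28, adjusted p = 0.000211). The 2-week value rested on a low and uneven ethanol level: without the first ethanol library it was 3.27 and without the second 4.54. Libraries without 4OHT never exceeded 2.52 CPM and those with it never fell under 13.4. No inhibitor comparison called it. With MRTX1133 in 3154 the log2 changes were 0.19 ± 0.32 and -0.07 ± 0.23, and in 3311 trametinib gave 0.69 ± 0.42. In 1027B its 6 libraries ran from 17.4 to 51.9 CPM, with overlap between vehicle and each drug. In H358 it was barely detected, at 0.207 and 0.299 CPM with vehicle and 0.43 and 1.1 with trametinib (adjusted p = 0.0544). H1651 had the most, 81.9 to 156 CPM in the 48-h libraries, and no call. With the replicate number in the edgeR fit it was called lower with trametinib there (-0.40, adjusted p = 1.72e-07).

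**Figure D2:**
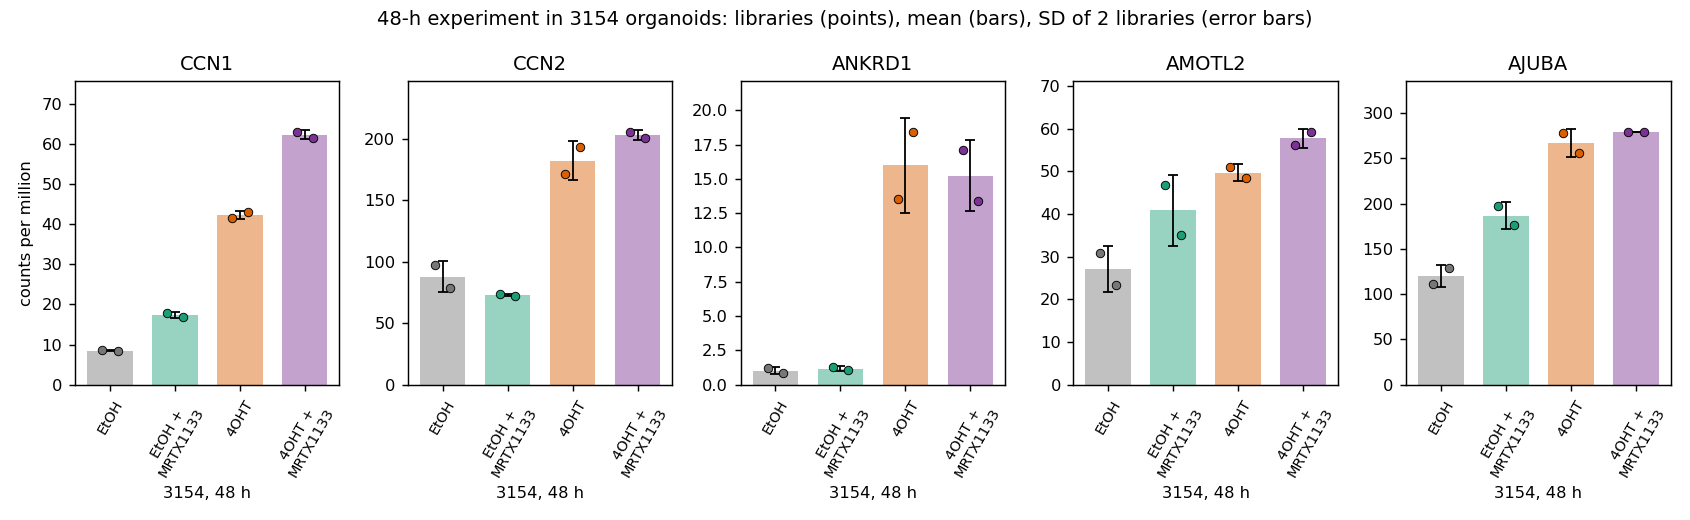
CPM of 5 genes in the 4 groups of the 48-h experiment in 3154 organoids; bars are means of 2 libraries, points the libraries and error bars the SD. For CCN1, CCN2 and ANKRD1 both 4OHT groups lie above both ethanol groups.

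Amotl2 and Ajuba encode junctional scaffold proteins: angiomotin-like 2 binds YAP, and the LIM protein AJUBA holds LATS kinases inactive at junctions. Their widest changes came with trametinib. In 3311, Amotl2 went from 10.1 and 16.1 to 222 and 178 CPM (3.93 ± 0.25, adjusted p = 0.000349) and Ajuba from 21.7 and 25.3 to 143 and 122 (2.49 ± 0.16, adjusted p = 0.000349). In H358, AMOTL2 went from 60.7 and 60.7 to 222 and 189.7 CPM (1.76 ± 0.11, adjusted p = 2.45e-05) and AJUBA from 139.5 and 132 to 339 and 312 (1.26 ± 0.10, adjusted p = 6.25e-05). The spread within each group was small beside the distance between groups for both genes and in both lines.

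In 1027B organoids both inhibitors raised the pair. Amotl2 was at 34.2 and 29.1 CPM with vehicle, 80.0 and 76.2 with trametinib (1.30 ± 0.12, adjusted p = 0.00124) and 63.9 and 59.1 with MRTX1133 (0.96 ± 0.12, adjusted p = 0.0111). Ajuba was at 80.6 and 64.2 CPM, then 183 and 158 with trametinib (1.24 ± 0.17, adjusted p = 0.00404) and 170.3 and 132 with MRTX1133 (1.06 ± 0.17, adjusted p = 0.0209). No treated library overlapped the vehicle libraries. Leaving out the first MRTX1133 library took both MRTX1133 calls away (adjusted p = 0.0595 for Amotl2 and 0.0876 for Ajuba), and Ajuba's was also lost without either vehicle library (adjusted p = 0.0536 and 0.0817).

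Both genes were higher in 4OHT than in ethanol libraries at 48 h with vehicle. Amotl2 went from 30.9 and 23.4 to 51.1 and 48.4 CPM (0.87 ± 0.19, adjusted p = 0.0108), a call lost without either 4OHT library (adjusted p = 0.0746 and 0.0623). Ajuba went from 111 and 129 to 278 and 256 CPM (1.15 ± 0.13, adjusted p = 0.000848). Under MRTX1133, Ajuba went from 198 and 176 to 279 and 279 CPM (0.58 ± 0.13, adjusted p = 0.0129), again a call that rested on both 4OHT libraries and on the second ethanol library (adjusted p of 0.0737 to 0.0807 without one of them). Amotl2 was at 46.7 and 35.1 against 56.1 and 59.3 CPM there and did not pass (adjusted p = 0.0824). At 2 weeks neither gene passed: Amotl2 had a log2 change of 0.26 ± 0.15 and Ajuba of 0.48 ± 0.20, with 4OHT libraries above ethanol libraries for both. In H1651 Ajuba's human counterpart was at 388 and 412 CPM with vehicle and 434 and 440.3 with trametinib, and AMOTL2 at 212 and 233 against 264 and 279.7. Both were higher in both treated libraries, by log2 0.13 ± 0.09 and 0.29 ± 0.10, without a call (adjusted p = 0.999 for both). With the replicate number in the edgeR fit AMOTL2 was called (0.29, adjusted p = 2.11e-05) and AJUBA was not (adjusted p = 0.0853).

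Lats2 encodes the kinase that phosphorylates YAP and TAZ, so it is both a target and a brake. It rose with trametinib in 3311, from 8.06 and 8.84 to 27.6 and 23.8 CPM (3.04-fold, adjusted p = 0.0015), and in H358, from 26.4 and 25.6 to 49.5 and 47.3 (0.90 ± 0.11, adjusted p = 0.000488). The groups stood clearly apart in both lines. In 1027B the 6 libraries ran from 11.5 to 17.5 CPM and overlapped. In 3154 the 4OHT libraries were above the ethanol libraries in each deletion comparison, with log2 changes of 0.27 to 0.36, none of them called (adjusted p = 0.35 at 2 weeks, 0.0931 and 0.0643 at 48 h). In the mouse annotation 42.4% of the exon bases of Lats2 are shared with another gene on its strand, so its counts are less certain than those of the other members.

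Axl encodes a receptor tyrosine kinase. Its level differed most between the cultures, and it was the target gene that fell in one of them. In 3311 it was at 332 and 282 CPM with vehicle and 217 and 215 with trametinib, lower by log2 -0.51 ± 0.15 (adjusted p = 0.0305). In 1027B it was at 3.78 and 3.25 CPM, with 6.59 and 7.04 after trametinib (0.95 ± 0.26, adjusted p = 0.0359) and 6.24 and 9.12 after MRTX1133 (1.12 ± 0.26, adjusted p = 0.0533). In H358 it rose from 9.74 and 9.14 to 19.6 and 22.02 CPM (1.14 ± 0.14, adjusted p = 0.000483). The groups did not overlap in these comparisons. The 3311 call was lost without the first vehicle library or either trametinib library (adjusted p = 0.0947 to 0.136), and the 1027B call without any 1 of its 4 libraries (adjusted p = 0.0828 to 0.133). In 3154 at 2 weeks Axl had 0 and 3 counts in the ethanol libraries and 13 and 21 in the 4OHT libraries, and was not called. H1651 had 61.6 to 134 CPM over its 8 libraries and no call. With the replicate number in the fit AXL was called lower with trametinib (-0.43) and with doxycycline (-0.17).

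Arhgef17, which encodes a guanine nucleotide exchange factor for RhoA, rose with trametinib in 3311, from 81.0 and 77.6 to 183 and 138 CPM (1.02 ± 0.17, adjusted p = 0.00461), and in H358, from 53.0 and 42.9 to 123 and 105 (1.25 ± 0.14, adjusted p = 0.000254). Treated and vehicle libraries were apart in both lines. In 1027B it stayed between 98.6 and 126 CPM in all 6 libraries. At 2 weeks after deletion it was at 53.9 and 55.6 CPM with ethanol and 81.1 and 74.0 with 4OHT, just outside the threshold (0.50 ± 0.13, adjusted p = 0.0654). In the 48-h experiment the 2 ethanol vehicle libraries differed from each other, at 43.2 and 22.9 CPM, and no comparison was called.

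**Figure D3:**
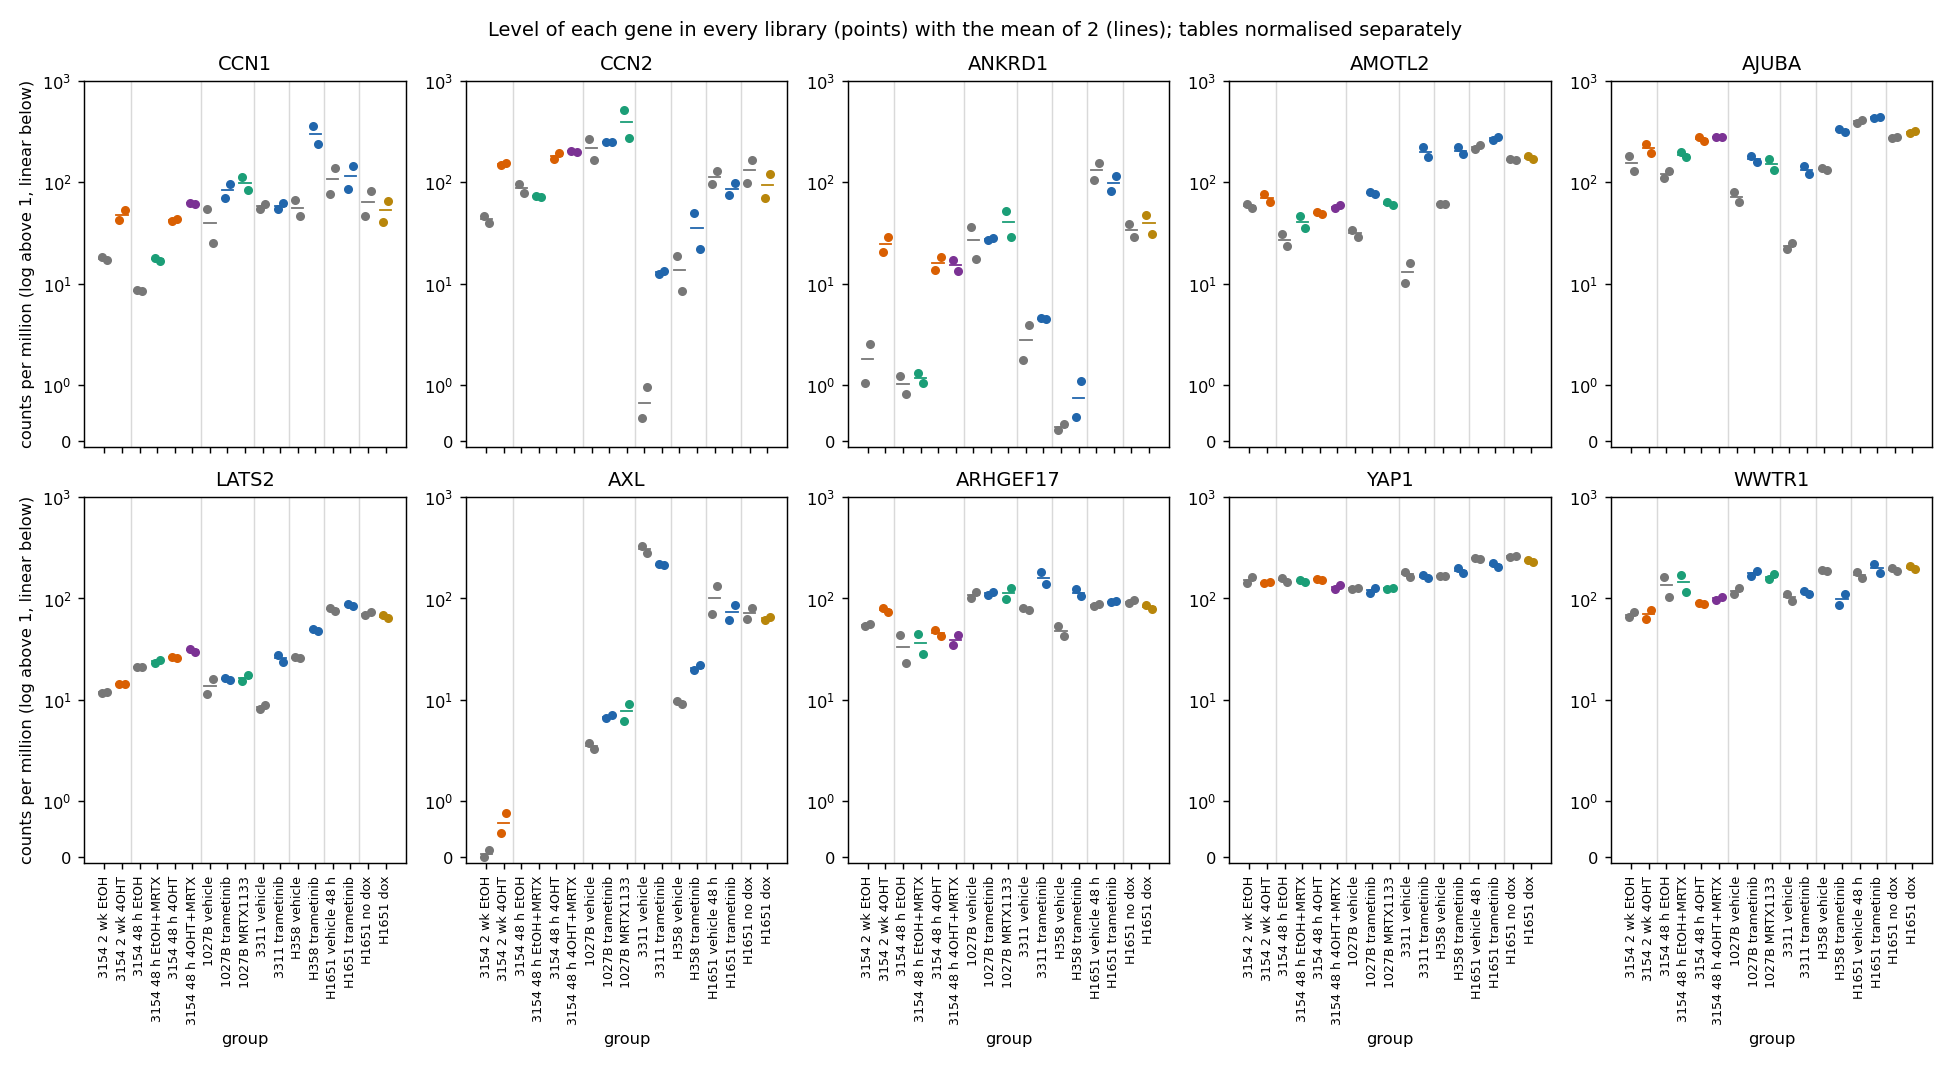
CPM of each gene in every library, on an axis that is logarithmic above 1 and linear below; points are libraries, horizontal lines means of 2, grey vehicle, orange 4OHT, blue trametinib, green MRTX1133, purple 4OHT with MRTX1133 and gold doxycycline. YAP1 lies between 114 and 263 CPM in all 34 libraries, while CCN2, ANKRD1 and AXL span over 100-fold.

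Yap1 and Wwtr1 encode the coactivators themselves. Yap1 was called in none of the 11 comparisons with a matching vehicle, with log2 changes from -0.24 to 0.17. It stood at 142 and 161 CPM in ethanol and 142 and 144 in 4OHT libraries at 2 weeks. With trametinib it was at 184 and 163 against 169.7 and 159 in 3311, and at 168 and 167 against 199 and 178 in H358. In H1651 it went from 252 and 246 to 225 and 207 CPM with trametinib. With doxycycline it went from 259 and 263 to 240 and 231 CPM. An edgeR fit that included the replicate number called both H1651 changes (-0.21, adjusted p = 0.00298, and -0.15, adjusted p = 0.0164). Wwtr1 was called in opposite directions. In 1027B it rose with trametinib from 110.4 and 128 to 167 and 188 CPM (0.58 ± 0.12, adjusted p = 0.0165), a call lost without the first vehicle library or either trametinib library (adjusted p = 0.0512 to 0.0804). In H358 WWTR1 fell from 192 and 187 to 85.9 and 111 CPM (-0.94 ± 0.13, adjusted p = 0.000857), with no overlap. In the 48-h 3154 experiment Wwtr1 was at 165 and 104 CPM in the ethanol vehicle libraries and 90.5 and 88.4 with 4OHT (-0.59 ± 0.24, adjusted p = 0.0987), and the ethanol libraries differed more from each other than the second one did from the 4OHT libraries. Counts measure RNA: the phosphorylation and location of the YAP and TAZ proteins, by which the Hippo kinases act, were not measured.

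In 1027B the libraries with the same replicate number deviated together, and a fit with the replicate number as a block was therefore also made. With the block, MRTX1133 gave 6 calls in place of 2: Ccn1 (1.32, adjusted p = 0.0127), Ccn2 (0.85, adjusted p = 0.0112), Axl (1.10, adjusted p = 0.0122) and Wwtr1 (0.47, adjusted p = 0.00177) joined Amotl2 and Ajuba, while the share of all genes called went from 6.27% to 24.1%. For trametinib Ccn1 joined the 4 calls (1.12, adjusted p = 0.0144), with 44.9% of all genes called in place of 26.7%, so that 5 of 10 members was near the background. Each of these 5 changes was upward in both replicate numbers. MRTX1133 and trametinib were also compared with each other, at their different doses of 20 and 10 nM: none of the 10 genes was called, nor any of the 14555 tested (0%), although 2357 genes had an unadjusted p under 0.05 with edgeR and DESeq2 called 675, none of them a member. The smallest adjusted p of any gene in that comparison was 0.0648. With the block Amotl2 was lower with MRTX1133 than with trametinib (-0.34, adjusted p = 0.0288), the 1 member among 14.1% of all genes called.

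**Figure D4:**
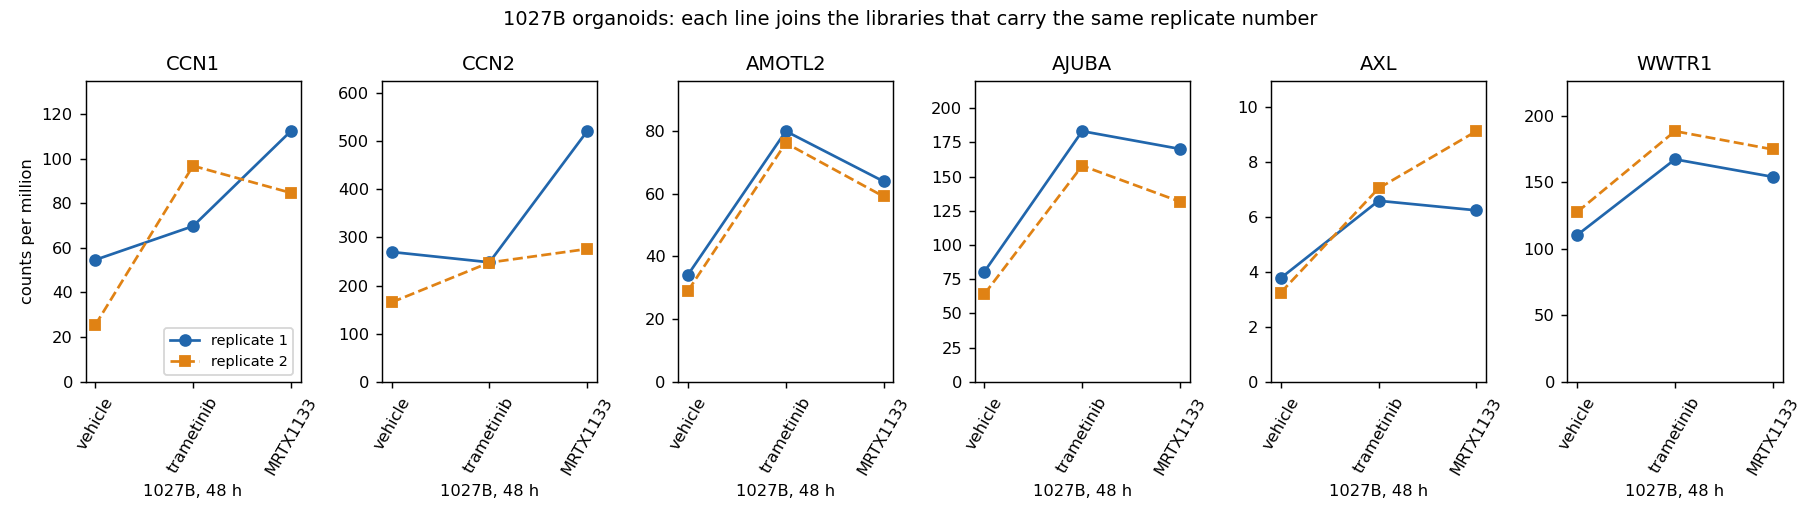
CPM of 6 genes in the 1027B libraries with vehicle, trametinib or MRTX1133; each line joins libraries with the same replicate number. AMOTL2 and AJUBA lie above vehicle with both drugs in both replicates, and CCN2 lies above it with MRTX1133.

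The 48-h experiment in 3154 crossed deletion with MRTX1133, and the interaction of the 2 treatments was tested directly. None of the 9 genes was called, nor any of 15458 genes (0%). edgeR left 1150 genes under an unadjusted p of 0.05, its lowest adjusted p was 0.541, and DESeq2 called 30 genes, none of them a member. The interaction estimates were -0.57 ± 0.18 for Ajuba, -0.47 ± 0.17 for Ccn1, -0.38 ± 0.26 for Amotl2 and 0.43 ± 0.20 for Ccn2, on the log2 scale. A difference between the deletion response with vehicle and under MRTX1133 was not called for any member, including Amotl2, which was called in one arm and not in the other. The libraries with both treatments were the highest of the 4 groups for Ccn1 (63.1 and 61.7 CPM), Ccn2 (206 and 200.4), Amotl2 (56.1 and 59.3) and Lats2 (31.9 and 29.6). For Ajuba (279 and 279) they were nearly level with 4OHT alone (278 and 256).

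Among vehicle libraries, CPM levels differed widely between cultures, and since each table was normalised on its own these orders are descriptive. CCN1 was highest in the H1651 48-h vehicle libraries (107 ± 43.1 CPM, SD, n = 2) and lowest in the 48-h 3154 libraries (8.49 ± 0.134). The libraries of H1651 (both experiments), 3311, H358 and 1027B overlapped their neighbours in that order, and those of 3154 did not overlap any. CCN2 was highest in 1027B (217 ± 73.9) and lowest in 3311 (0.682 ± 0.387). ANKRD1 ran from 131 ± 35.9 in H1651 to 0.253 ± 0.0646 in H358, and AXL from 307 ± 35.2 in 3311 to 0.0674 ± 0.0953 in 3154. AJUBA (400.1 ± 17.1), AMOTL2 (222 ± 14.9) and LATS2 (78.3 ± 4.40) were highest in H1651 and lowest in 3311 (23.5 ± 2.54, 13.1 ± 4.21 and 8.45 ± 0.551). YAP1 varied least, from 261 ± 2.73 in H1651 without doxycycline to 126 ± 2.81 in 1027B.

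Levels can be compared between genes per length of transcript, here as reads per kilobase of mouse exon, scaled by library size (RPKM). In the ethanol libraries of 3154 at 2 weeks, Ajuba was the most abundant member (49.7 and 35.8 RPKM), followed by Yap1 (15.3 and 17.4), Ccn2 (16.1 and 13.9) and Wwtr1 (13.6 and 15.4), which overlapped. In 1027B with vehicle Ccn2 led (94.3 and 57.7 RPKM), and in 3311 Axl led (66.0 and 56.1 RPKM) with Ccn2 last (0.143 and 0.334). With trametinib in 3311, Ajuba (39.3 and 33.4 RPKM) and Amotl2 (35.3 and 28.3) came next to Axl (43.1 and 42.8), and Ccn1 (26.9 and 31.0) overlapped Amotl2.

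Other genes of the pathway were followed in lists of 15 Hippo kinases and scaffolds, 7 TEAD factors and VGLL cofactors, and 15 further genes of a YAP target signature. Of the other signature genes, 6 rose and 2 fell after deletion in the 48-h vehicle libraries (median 0.46 of 14 tested), 6 rose and 2 fell after deletion under MRTX1133 (median 0.47 of 14), 6 rose and 5 fell with trametinib in 3311 (median -0.18 of 15), 4 rose and 5 fell with it in 1027B (median 0.30 of 14) and 6 rose and 3 fell in H358 (median 0.15 of 14). Of all genes, 31.0%, 27.7%, 39.0%, 26.7% and 46.8% were called in these comparisons. The corresponding medians of the 10 members (or 9) were 0.87, 0.50, 0.86, 0.40 and 1.25. Tgfb2, which encodes a secreted growth factor, rose after 48-h deletion, with trametinib in 3311 and in both 1027B comparisons, where it went from 4.21 and 2.49 CPM to 56.3 and 32.6 with trametinib (3.72 ± 0.37, adjusted p = 0.00146). Gadd45a, a stress gene, fell with trametinib in 3311 (-2.44 ± 0.25, adjusted p = 0.000956) and in the 3 deletion comparisons, from 75.8 and 80.8 to 10.5 and 10.4 CPM at 48 h with vehicle (-2.90 ± 0.20, adjusted p = 0.000147). Igfbp3, a secreted binding protein of insulin-like growth factors, was called in both directions: it fell with trametinib in 1027B (-2.41 ± 0.24, adjusted p = 0.00143) and rose in H358 (2.66 ± 0.11, adjusted p = 5.42e-06) and after 48-h deletion (2.84 ± 0.43, adjusted p = 0.00267). F3, the gene of tissue factor, fell in 3311 from 241 and 531 to 31.9 and 39.2 CPM.

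Upstream of the targets, calls went in both directions. Of the Hippo kinases and scaffolds tested, 1 of 15 was called after 2 weeks of deletion, 8 of 15 at 48 h with vehicle (7 higher), 3 of 15 after deletion under MRTX1133, 4 of 15 with trametinib in 3311, 5 of 14 in 1027B and 8 of 14 in H358 (5 higher). The shares of all genes called in these comparisons were 9.81%, 31.0%, 27.7%, 39.0%, 26.7% and 46.8%, so the counts at 2 weeks, in 3311 and under MRTX1133 were below the background. Wwc2, which encodes a scaffold of the KIBRA family that promotes LATS activity, rose with trametinib in 3311 (1.71 ± 0.17, adjusted p = 0.000905), 1027B (1.03 ± 0.10, adjusted p = 0.00129) and H358 (0.84 ± 0.13, adjusted p = 0.00142), with MRTX1133 in 1027B and after 48-h deletion. Sav1, whose protein is the MST kinases' scaffold, fell in 3311 (-0.63 ± 0.13, adjusted p = 0.00896) and in 1027B (-0.75 ± 0.10, adjusted p = 0.00313). In H1651 with doxycycline WWC1, the KIBRA gene, was the 1 call of 15 (0.66 ± 0.07, adjusted p = 0.012). Among TEAD and VGLL genes, Tead1 and Tead2 fell with trametinib in 3311 (-0.57 ± 0.17 and -0.81 ± 0.19), Tead4 fell in 1027B (-0.59 ± 0.15), and TEAD2 and TEAD3 rose in H358 (0.50 ± 0.10 and 0.47 ± 0.16). Vgll4, which encodes a competitor of YAP for TEAD, rose in 3311 (0.57 ± 0.16) and H358 (0.42 ± 0.10) and fell with both drugs in 1027B (-0.49 ± 0.12 and -0.61 ± 0.12).

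**Figure D5:**
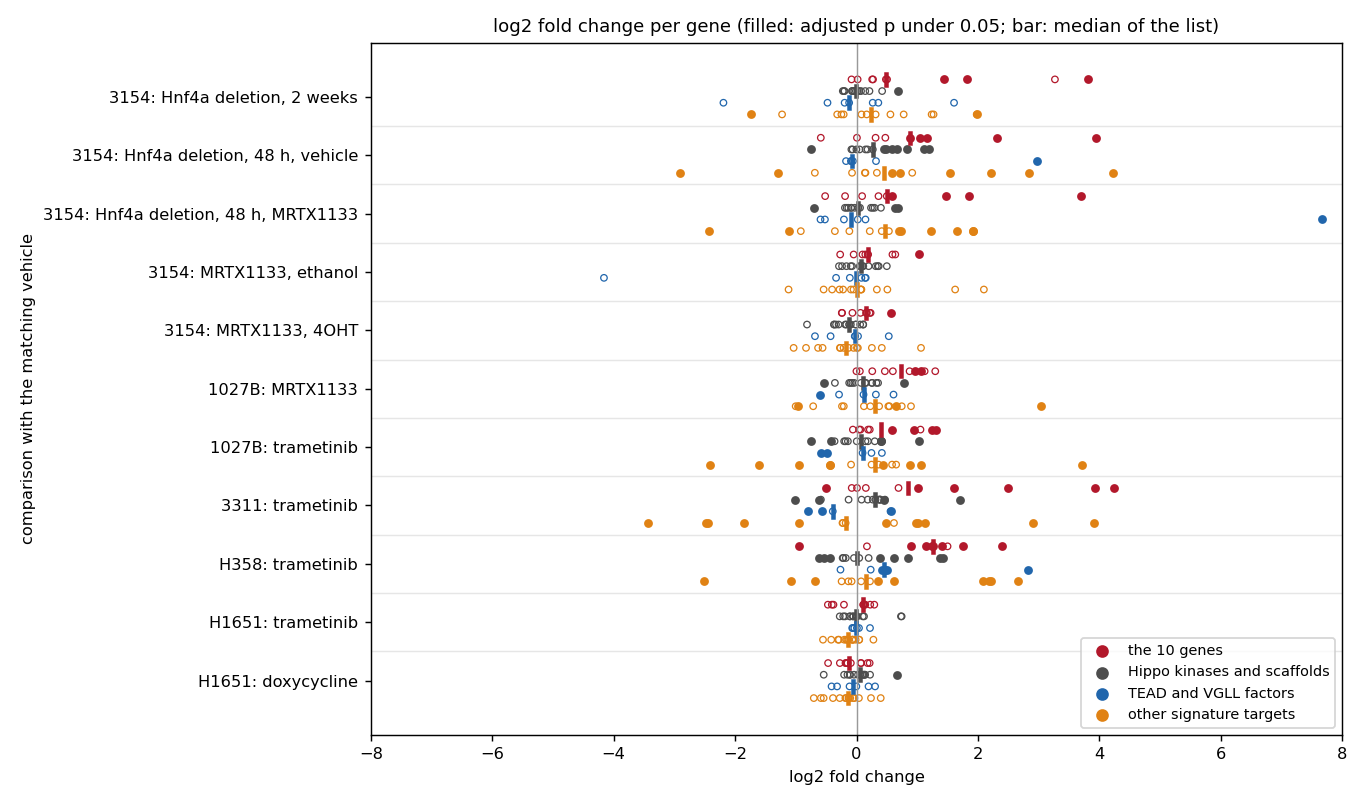
log2 fold change of the members (red) and of 3 lists of pathway genes (other colours) in the same comparisons, filled where called, with the median of each list as a bar; fitted changes of genes at or near 0 counts in a group, such as VGLL3 at 7.66, depend on the fit's prior count. The members' median lies above 0 in every row but the last.

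Within the 22 mouse libraries, after centring each gene within its table, the members differed in how closely they moved together. Pearson's r of log2 CPM was 0.95 for Ajuba and Amotl2, 0.93 for Lats2 and Amotl2, 0.88 for Ccn2 and Amotl2, 0.86 for Ccn1 and Ankrd1, and between 0.71 and 0.73 for Arhgef17 with Ccn2, Lats2 and Amotl2. It was 0.61 for Ankrd1 and Ccn2, 0.56 for Ccn1 and Ajuba, 0.46 for Ccn1 and Ccn2 and 0.35 for Ccn1 and Amotl2. Yap1 had an r of -0.47 with Ccn1 and 0.02 with Arhgef17. These values describe libraries that share treatments and depth, and points in the same table are not independent. Of 12598 genes tested in all 4 mouse tables, those most like Ccn1 were Arl4c (0.95), Ano6 (0.95) and St3gal2 (0.94), and those most like Ccn2 were Gm17322 (0.95), Dhx29 (0.94) and Tle4 (0.94). The closest member to Ccn1 was Ankrd1, at rank 97, and the other members, without Axl, ranked from 2045 to 9521. The closest member to Ccn2 was Amotl2, at rank 74, and the others ranked from 81 to 8944.

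Markers of other cell types were summed in every library, because fewer cells of a type and less RNA per cell cannot be told apart in bulk samples. In the 3154 and 1027B organoids the 7 fibroblast markers summed to at most 1.69 CPM, with Col1a2, Col3a1, Dcn and Lum at or under 3 counts or not listed. In 3311 the sum was 21.5 and 26.2 CPM with vehicle and 17.5 and 17.3 with trametinib, and its part in the changes of the members there was not tested. In H358 it was 50.0 and 41.2 CPM with vehicle and 348 and 246 with trametinib. That is the direction of the 7 members called higher there and opposite to WWTR1, and its part in those changes was not tested. H1651 had the highest sums, 433 and 534 CPM with vehicle and 508 and 649 with trametinib, and 663 and 757 CPM without and 413 and 455 with doxycycline. In the doxycycline comparison that is the direction of the estimates for CCN1 and CCN2, which were called only with the replicate number in the fit. Endothelial and immune markers summed to at most 21 and 8.13 CPM in any library. The endothelial sum was higher with trametinib in H358 (11.6 and 14.2 CPM with vehicle, 20.8 and 21 treated), and its part in the changes there was not tested. Other differences without overlap in these sums lay at levels of 8.13 CPM or less. The 8 alveolar type 1 markers summed to 218 and 230 CPM with vehicle and 1347 and 974 with trametinib in 3311, to 1549 and 1803 against 3135 and 3992 in 1027B, and to 434 and 443 against 934 and 991 in H358. They summed to 1753 and 1601 CPM in the ethanol and 2784 and 2868 in the 4OHT vehicle libraries of the 48-h 3154 experiment, and to 197 and 198 against 246 and 217 with trametinib in H1651. With MRTX1133 in the ethanol libraries of the 48-h 3154 experiment, where Ccn1 was the 1 call, the sum was 2860 and 2380. With both 4OHT and MRTX1133 it was 4912 and 4865 CPM. At 2 weeks it was 1684 and 1757 CPM with ethanol and 1992 and 2178 with 4OHT, and in 1027B it was 2023 and 2726 with MRTX1133. Single markers also went the other way. With trametinib 4 of 7 tested were called higher and 1 lower in 3311 (39.0% of all genes called). The counts were 5 of 8 and 1 in 1027B (26.7%) and 4 of 6 and 1 in H358 (46.8%). With MRTX1133 in 1027B they were 2 of 8 and 1 (6.27%). In the 3154 comparisons none was called lower. Called higher were 2 of 8 after deletion at 2 weeks (9.81%), 5 of 7 at 48 h with vehicle (31.0%) and 6 of 7 under MRTX1133 (27.7%). MRTX1133 gave 3 of 7 in the ethanol (0.349%) and 3 of 7 in the 4OHT libraries (4.64%). The sum was higher wherever target genes were called higher in these comparisons, while Axl in 3311 was called lower as the sum was higher, and its part in their change was not tested.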

How the data were processed

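Poly(A) RNA was sequenced from 34 libraries, prepared with a directional kit per the labels' protocols. The deposited values are raw read counts per gene, which the authors made per table. The submitters' processing notes name cutadapt 3.5, STAR 2.7.6a, featureCounts 1.6.3 and the builds mm10, mm39 and hg38; which mouse build each table used, and whether counting used strand, is not given in the sources used here. Without that, reads of a gene and an antisense neighbour cannot be told apart (23.2% of Ccn2 exon bases in GENCODE M21, GRCm38, lie opposite another gene).

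An allele that the mouse cultures share is not reported here. Samples were grouped by their titles, and the 3311 columns, which carry no culture name, were matched through their table. Each table was fitted on its own with edgeR 4.0.16 in R 4.3.3 (filterByExpr, TMM scaling, quasi-likelihood F-test, Benjamini-Hochberg adjustment over all genes tested), with all 6 libraries of 1027B and all 8 of the 48-h 3154 experiment sharing a fit. The SE is the absolute log2 change divided by the root of F. CPM uses TMM-scaled library sizes and RPKM the exon length in GENCODE M21. Library totals of 19692517 to 45284286 leave counting error small beside replicate spread except for genes with few counts, such as Axl in 3154. Replicates of a group differed by more than sampling noise (chi-square per degree of freedom 5.40 to 79.5), so none was counted as a duplicate. The scripts were tested on simulated data.

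All members are described. Statistics are given for called members, and from each pathway list up to 3 called genes per comparison with the largest change could be named, where libraries of the groups did not overlap and the higher group reached 10 CPM; Hnf4a and Dusp6 served as checks. The members, lists and tests were chosen with earlier results of these data known. In 1027B same-numbered libraries deviated together in all 3 pairs of groups (r = 0.33, 0.21 and 0.37 over 14555 genes), which was taken as pairing; it comes from the data, since the labels do not state it. Alternatives were DESeq2 1.42.0, other scalings and filters, the replicate block, fits on the compared groups alone and leaving out each library. The lone library left in a group is then assumed to vary like the other groups.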

Additional observations from a re-analysis of the deposited data

Results flagged for a closer look

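Axl changed in opposite directions with trametinib: both treated libraries were below both vehicle libraries in 3311 (log2 change -0.51) and above them in 1027B (0.95) and in H358 (1.14). WWTR1 was higher in both trametinib libraries of 1027B (0.58) and lower in both of H358 (-0.94). YAP1 was higher in both trametinib libraries of H358 (0.17) and lower in both of H1651 (-0.21), without a call in either line. These cultures are in separate tables, with doses of 10 to 50 nM, and the difference between them was not tested.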

How the results depend on the processing

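No member's called change reversed in 357 alternative values for 34 called changes; 23 were called under every alternative, and 11 lost their call under at least 1. The number of members called changed by more than 1.5 times in the following cases. With the replicate block it was 6 in place of 3 for the 2-week deletion, 7 in place of 0 with doxycycline in H1651 (2 higher, 5 lower), 6 in place of 0 with trametinib in H1651 (2 higher, 4 lower), 6 in place of 2 with MRTX1133 in 1027B, 1 in place of 0 for MRTX1133 against trametinib, and 0 in place of 1 with MRTX1133 in 4OHT-treated 3154. Under the block the share of all genes called in these comparisons was 31.5%, 17.6%, 10.3%, 24.1%, 14.1% and 4.91%, against 9.81%, 1.42%, 0%, 6.27%, 0% and 4.64% without it. With trametinib in H1651 the members called under the block were CCN2, ANKRD1, AXL and YAP1 (lower) and AMOTL2 and WWTR1 (higher). With doxycycline they were CCN1, CCN2, AXL, ARHGEF17 and YAP1 (lower) and ANKRD1 and AJUBA (higher). Outside 1027B these libraries share a number that the labels do not tie to a batch. The correlation of same-numbered deviations ran from -0.20 to 0.60, and was highest for the H1651 trametinib experiment. With DESeq2 the number of members called was 6 for MRTX1133 in 1027B and 2 for MRTX1133 in ethanol-treated 3154. Fitted on its 4 libraries alone, the latter gave 0. Leaving out 1 library gave 2 to 3 calls for trametinib and 0 to 2 for MRTX1133 in 1027B, 0 to 1 for trametinib in H1651, and 0 to 2 in ethanol-treated and 0 in 4OHT-treated 3154 with MRTX1133. The cause was not tested. Depth limits Axl in 3154, Ccn2 in vehicle-treated 3311 and ANKRD1 in H358.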
